A study of Mus musculus with 15 samples.

Results

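The genes of the CD3 complex are Cd3e, Cd3d, Cd3g and Cd247, which encode the signalling chains of the T cell receptor. All 4 were found in the RefSeq gene table of GRCm38, out of 49554 genes on the autosomes and chromosome X, of which 26794 also had a start site and a strand in the RefSeq promoter table. They were chosen by name, and the window of each gene was its annotated span plus 10 kb on each side. Chromatin was mapped in EL4, an established T lymphocyte lymphoma line that the labels assign to the mouse strain C57BL/6N, and the labels list no treatment of the cells. ChIP-seq was done for H3K4me3, H3K9ac, H3K27ac, H3K36me2 and H3K27me3 and accessible chromatin was mapped by ATAC-seq, with 2 replicates each, so that 12 of the 15 samples had a list of called intervals. Of the remaining samples, the input DNA and the RNA-seq replicates were not analysed here. Per the methods, the ATAC-seq replicates were technical, and so were those whose peaks the authors merged. The methods give such merged peak numbers for ATAC-seq and for each of the marks, and name no separate cultures for ChIP-seq. The spread between replicates given below is therefore taken as technical. EL4 is a single transformed line, and the values describe these libraries and not T cells in general.

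CD3 epsilon (Cd3e) pairs with CD3 delta (Cd3d) or CD3 gamma (Cd3g), and these pairs join a zeta homodimer (Cd247) and the antigen-binding receptor chains at the surface of the T cell. The cytoplasmic tails carry tyrosine-based activation motifs that the kinase Lck phosphorylates and that then recruit the kinase Zap70. Cd3e, Cd3d and Cd3g lie next to each other and are related in sequence, whereas Cd247 lies on another chromosome and belongs to a separate family. Among the marks, H3K4me3 is typical of active promoters, H3K9ac and H3K27ac of active promoters and enhancers, H3K36me2 of gene bodies and intergenic euchromatin, and H3K27me3 of chromatin silenced by Polycomb. H3K4me3, H3K9ac and H3K27ac are called the active marks below.

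The lists held from 17519 intervals (ATAC-seq, replicate 1) to 46015 intervals (H3K27me3, replicate 1). They gave positions only, so the depth of the libraries and the strength of a peak are unknown, and a place without an interval is one where the authors' caller passed no peak. The lineage label was checked with markers, counted as marked where H3K4me3 and H3K27ac of both replicates touched the start, a rule met by 34.6% of all genes with a listed start. Of 10 T cell markers, 8 had a listed start and all 8 were marked, of which 4 were the CD3 genes themselves and the others Lck, Cd5, Tcf7 and Bcl11b. None of the 4 B cell markers with a listed start (of 8) and none of the 6 myeloid markers with a listed start (of 8) were marked. Anywhere in the window the contrast was smaller. H3K4me3 was found there in both replicates in 10 of 10 T cell, 3 of 8 B cell and 5 of 8 myeloid markers. The counts were the same for H3K27ac. The shares of all 49554 genes were 37.9% (H3K4me3) and 38.1% (H3K27ac), and intervals of neighbouring genes can count in a window.

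In GRCm38, Cd3g spans chr9:44969572-44980431 on the minus strand, and Cd3d spans chr9:44981769-44987052 on the plus strand. Their start sites face away from each other and are 1355 bp apart. Cd3e spans chr9:44998735-45009663 on the minus strand, so that its far end lies 11683 bp beyond the far end of Cd3d. Cd247 spans chr1:165779952-165871153 on the plus strand, and its listed start site lies 8729 bp inside the lower edge of this span. The windows were 30.9 kb for Cd3g, 25.3 kb for Cd3d, 30.9 kb for Cd3e and 111 kb for Cd247. The windows of Cd3g and Cd3d share 18663 bp and those of Cd3d and Cd3e share 8318 bp, so the values of these genes rest in part on the same intervals. The gene table gives no exons, and positions inside a gene are therefore not assigned to exons, introns or UTRs.

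The 250 bases before each start site are shown because the assays differed there among the 4 genes. The sequences are those of RefSeq for GRCm38.p6, 5′ to 3′ on the strand of the gene, and not those of the EL4 genome. Capitals mark matches, on either strand, to letters known from factors of the T lineage or from core promoters. The E-box was searched as CANNTG, the letters bound by E proteins. The ETS letters were AGGAAG, or the same word with an initial C. The GATA letters were AGATAA. The RUNX letters, searched as TGTGGT, had no match, and neither had those of the TCF/LEF factors, searched as CTTTGAA, nor the TATA box, searched as TATAAA. Variants of these letters were not searched, so a lack of matches holds for these words only. The Cd3d promoter, for example, holds atcaaag, which reads CTTTGAT on the other strand. No matches overlapped each other.
Cd3g, chr9:44980432-44980681, minus strand: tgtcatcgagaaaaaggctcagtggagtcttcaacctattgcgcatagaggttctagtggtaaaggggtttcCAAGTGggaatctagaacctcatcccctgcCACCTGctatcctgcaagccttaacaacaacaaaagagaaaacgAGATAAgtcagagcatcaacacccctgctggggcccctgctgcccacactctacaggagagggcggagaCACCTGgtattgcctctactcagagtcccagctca
Cd3d, chr9:44981536-44981785, plus strand: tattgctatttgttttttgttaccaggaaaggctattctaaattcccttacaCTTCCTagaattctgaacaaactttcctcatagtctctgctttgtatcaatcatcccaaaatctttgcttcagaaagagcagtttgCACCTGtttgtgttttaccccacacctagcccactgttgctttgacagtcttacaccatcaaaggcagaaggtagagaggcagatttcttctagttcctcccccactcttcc
Cd3e, chr9:45009612-45009861, minus strand: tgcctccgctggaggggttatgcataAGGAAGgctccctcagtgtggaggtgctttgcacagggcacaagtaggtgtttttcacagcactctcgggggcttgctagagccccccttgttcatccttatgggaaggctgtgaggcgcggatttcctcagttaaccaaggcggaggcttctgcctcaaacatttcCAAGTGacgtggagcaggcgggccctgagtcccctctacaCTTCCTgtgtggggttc
Cd247, chr1:165788431-165788680, plus strand: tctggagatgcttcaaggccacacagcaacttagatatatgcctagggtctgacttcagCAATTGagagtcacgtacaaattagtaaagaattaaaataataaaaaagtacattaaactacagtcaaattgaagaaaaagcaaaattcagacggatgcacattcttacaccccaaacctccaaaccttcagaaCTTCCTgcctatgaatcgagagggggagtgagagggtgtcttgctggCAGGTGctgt

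An E-box was present in all 4 promoters, as in 66.1% of the 26787 promoters of the same length. The ETS letters were in Cd3d, Cd3e and Cd247 and in 39.2% of all promoters, and the GATA letters were in Cd3g alone among the 4 and in 10.3% of all. The letters without a match here were in 14.1% (RUNX), 4.64% (TCF/LEF) and 13.0% (TATA box) of all promoters. The Cd3d promoter held no CG dinucleotide, which was so in 8.14% of all promoters. The other promoters held 3 (Cd247), 4 (Cd3g) and 7 (Cd3e), against a median of 6. The GC content was 41.2% in Cd3d and in Cd247, 51.6% in Cd3g and 57.2% in Cd3e, against a median of 52.4%. These matches are a description of letters, and binding of a factor was not measured.

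The marks at the ends of the genes were counted first, which asks which chromatin states the assays found where the CD3 genes begin and end. Each end was taken with 3 kb of the flank and 2 kb of the gene, and a mark was counted there when an interval of each of both replicates touched it. H3K4me3 was at the start of 4 of the 4 genes, against 35.5% of all genes. H3K9ac (35.0% of all genes) and H3K27ac (35.5% of all genes) were also at 4 of 4 starts. All 3 active marks were together at 4 of 4 starts, against 34.4%. H3K36me2 was at the start of Cd3g, Cd3d and Cd247, 3 of 4, against 22.3% of all genes and 44.9% of the genes with the active marks. The calls of Cd3g and Cd3d rest on the same interval in each replicate, which ends inside Cd3g. H3K36me2 flanked these starts and did not cover them. Within 1 kb of the start it was found in both replicates at 0 of 4 genes, against 13.2% of all genes and 22.9% of those with the active marks. H3K27me3 was at 0 of 4 starts, against 10.6%. ATAC-seq was at 2 of 4 starts, Cd3g and Cd3d, against 31.6%, and both counts rest on the same intervals at the Cd3g start. With an interval of either replicate, Cd3e was added, 3 of 4, against 34.0%. Among the 9219 genes with all 3 active marks at the start, 89.8% also had ATAC-seq there. Cd3e and Cd247, 2 of 4, had the active marks without ATAC-seq in both replicates, which was so for 3.52% of all genes. Within 1 kb of the start, only Cd3g (1 of 4) had ATAC-seq in both replicates, against 29.9% of all genes and 85.9% of the genes with the active marks. With 4 genes at 2 places in the genome, these counts were not tested and are given beside the share of all genes as a description.

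At the far ends the order of the marks was different. H3K36me2 was at the far end of all 4 genes, against 27.7% of all genes and 55.3% of the genes with the active marks at the start. In replicate 1 the calls of Cd3d and Cd3e rest on the same interval, chr9:44987801-44997399, which lies between these genes and touches neither. In replicate 2 the interval at Cd3d began at 44987001, just before the annotated end at 44987052. The count is therefore not one of H3K36me2 inside the genes, and with 1 kb on either side of the end it was 2 of 4. The far end of Cd247 lies inside the span of another gene, Pou2f1. In replicate 2 the only H3K36me2 interval counted there, chr1:165873001-165880599, lies past the end of Cd247. H3K4me3 (10.2% of all genes), H3K9ac (9.53%) and H3K27ac (10.9%) were each at 1 of 4 far ends, that of Cd3d, where they were found together, against 8.95% of all genes. ATAC-seq was at the far ends of Cd3d and Cd3g, 2 of 4, against 7.68% of all genes and 14.9% of those with the active marks at the start. The Cd3g call rests on a site that also lies in the start window of the neighbouring gene Ube4a. H3K27me3 was at 0 of 4 far ends, against 10.2%.

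Anywhere in the window, which could be counted for all 49554 genes, each active mark was found in both replicates in 4 of 4 CD3 genes. The shares of all genes were 37.9% for H3K4me3, 36.5% for H3K9ac and 38.1% for H3K27ac. H3K36me2 was in 4 of 4 windows, against 38.4%, and ATAC-seq in 3 of 4, against 34.3%. The gene without ATAC-seq in both replicates was Cd3e.

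Cd3g and Cd3d shared a nearly continuous stretch of the active marks that ran from inside Cd3g across the start sites of both genes and through the whole of Cd3d. When intervals up to 1000 bp apart were joined, H3K4me3 reached over 8.96 kb in replicate 1 (chr9:44978309-44987270) and 8.86 kb in replicate 2 (chr9:44978401-44987261). Of this extent, 507 and 683 bp were not covered by any interval. H3K9ac reached over 9.54 kb in both replicates, and H3K27ac over 9.67 and 9.83 kb. For comparison, the median H3K4me3 stretch at gene starts was 1970 bp in replicate 1 and 1950 bp in replicate 2, and 99.6% of the stretches were shorter than the one at Cd3g and Cd3d in both replicates. The corresponding shares were 99.8% for H3K9ac and 99.2% for H3K27ac, again the same in both replicates. The map of intervals across the 3 neighbouring genes shows this stretch between 2 domains of H3K36me2.

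**Figure D1:**
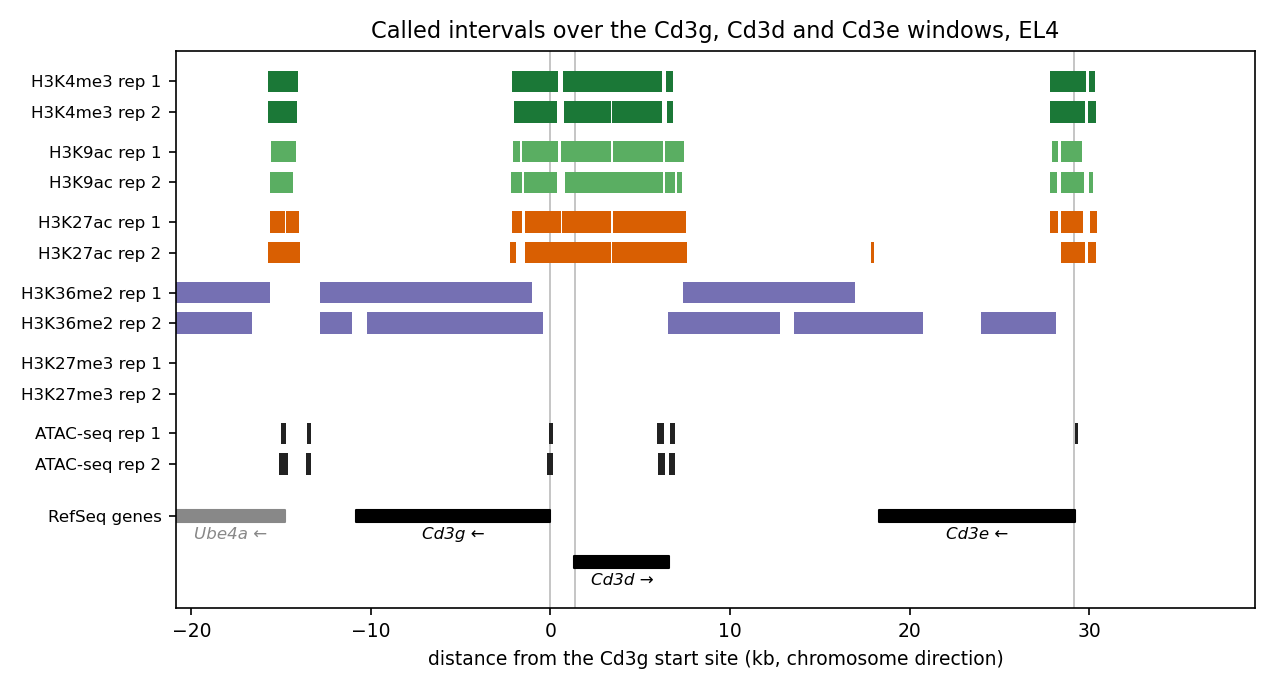
Called intervals of each list (rows, 2 replicates per assay) over the joined windows of Cd3g, Cd3d and Cd3e, by distance in kb from the Cd3g start site in the direction of the chromosome. Grey lines mark the start sites of the 3 genes, black bars the genes and the grey bar the neighbouring gene Ube4a. The active marks cover Cd3d from before its start to past its far end, and H3K36me2 lies on either side of them.

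Within the span of Cd3d alone, H3K4me3 covered 95.9% of the base pairs in replicate 1 and 94.5% in replicate 2. H3K9ac covered 95.5 and 97.8%, and H3K27ac 97.7 and 98.3%. In Cd3g, by contrast, the active marks kept to the part next to the start, and H3K4me3 covered 19.5 and 18.7% of the span, H3K9ac 18.1 and 19.5%, and H3K27ac 17.7 and 15.9%. Differences between Cd3d and Cd3g were thus far larger than those between replicates. The caller cut the stretch at different places in the 2 replicates. The H3K4me3 interval over the Cd3d start measured 5507 bp in replicate 1, wider than 99.3% of the intervals of that list, whereas in replicate 2 the same place held intervals of 2612 and 2822 bp. H3K9ac did the opposite, with 2747 and 2803 bp in replicate 1 and a single interval of 5460 bp in replicate 2. The width of a single interval was therefore not reproducible here, and the covered base pairs were.

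**Figure D2:**
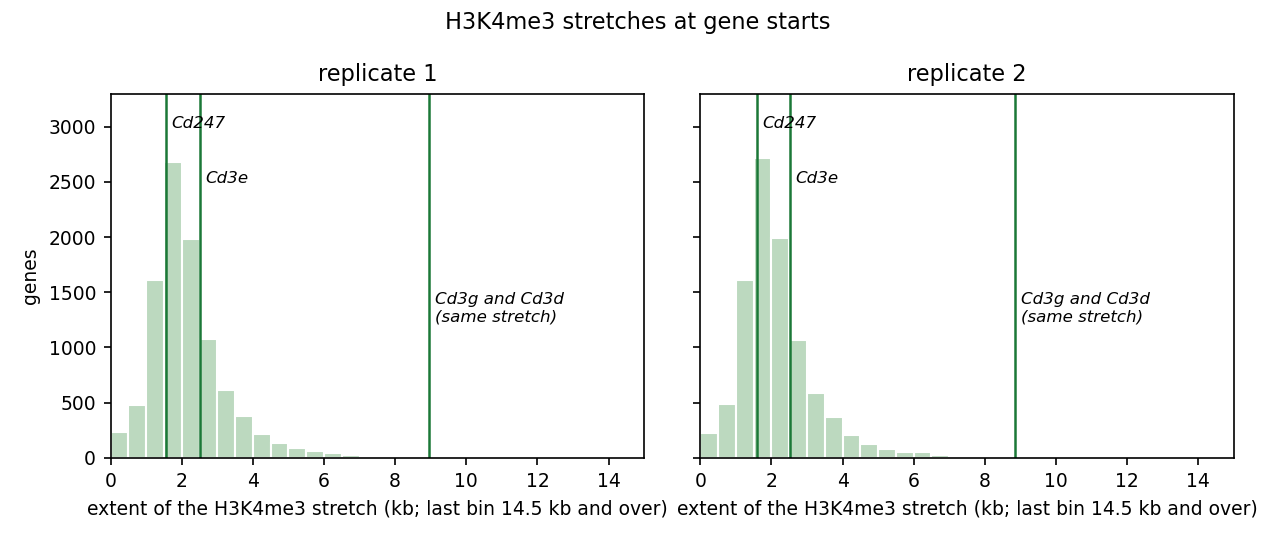
Number of genes (vertical axis) by the extent in kb of the H3K4me3 stretch at their start (horizontal axis, bins of 500 bp), in each replicate. Stretches are intervals joined over gaps of up to 1000 bp and lying within 3 kb of a start, and a stretch shared by neighbouring genes is counted for each. Green lines give the CD3 genes: Cd247 at 1.55 and 1.60 kb and Cd3e at 2.51 and 2.53 kb lie in the bulk of the distribution, and the stretch of Cd3g and Cd3d at 8.96 and 8.86 kb lies in its tail.

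ATAC-seq intervals in this stretch were called at the start site of Cd3g and around the far end of Cd3d, and none was called at the start site of Cd3d. At the start of Cd3g, an ATAC-seq interval of 223 bp in replicate 1 and 322 bp in replicate 2 covered the start site, and both replicates shared chr9:44980358-44980580. It reached 149 and 151 bases into the promoter printed above and held, in both replicates, the E-boxes at positions -148 to -143 and -35 to -30 from the start site and the GATA letters at -104 to -99. The E-box at -178 to -173 lay outside. No ATAC-seq interval touched the printed Cd3d promoter in either replicate, although all 250 of its bases were covered by each of the 3 active marks in both replicates. The nearest interval was that of Cd3g, 1206 and 1204 bp before the Cd3d start site.

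Further along, 2 ATAC-seq intervals lay at the far end of Cd3d in each replicate. The second began past the annotated end in replicate 1 and covered that end in replicate 2. The parts common to both replicates were chr9:44986438-44986781 (344 bp), inside the gene, and chr9:44987117-44987343 (227 bp), just past its end. Both lay in the stretch of the active marks, with 221 and 145 bp, respectively, in all 6 of their lists. In replicate 1 these intervals began 4593 and 5331 bp after the Cd3d start site, and in replicate 2 they began 4652 and 5262 bp after it.

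H3K36me2 was interrupted over the stretch of the active marks and present on both sides of it. In replicate 1 it ended at position 44979399, inside Cd3g, and began again at 44987801, past Cd3d, which left a gap of 8.40 kb. In replicate 2 the gap was 7.00 kb, from 44979999 to 44987001. H3K36me2 covered 90.5 and 90.2% of the Cd3g span and 0 and 0.984% of the Cd3d span, so that the body of Cd3g lay mostly in H3K36me2 and that of its neighbour Cd3d in the active marks. Over the joined windows of Cd3g, Cd3d and Cd3e (60.1 kb), H3K36me2 of both replicates covered 24024 bp and any active list covered 14375 bp, and these had 1429 bp in common.

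The window of Cd3g also held the start of Ube4a, a ubiquitin ligase gene, at position 44965600. The active marks there, in each of their lists, and an ATAC-seq interval common to both replicates (chr9:44965440-44965707) thus count toward the Cd3g window, although they belong to the other end of it. Past this gene, ATAC-seq of both replicates shared chr9:44966854-44967095 (242 bp), which no interval of any of the 5 marks touched. This site lay in the window around the far end of Cd3g, and it alone gave Cd3g its ATAC-seq call there. It also lay within 3 kb outside the Ube4a start site, so that it cannot be assigned to Cd3g.

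Cd3e had a short block of the active marks at its start. H3K4me3 formed an interval of 1998 bp over the start site in replicate 1 and of 1915 bp in replicate 2, with a further interval of 370 and 451 bp upstream. H3K9ac over the start site measured 1164 and 1325 bp, and H3K27ac 1192 and 1303 bp. All 6 lists had chr9:45008885-45010028 (1144 bp) in common, and this region includes the printed promoter. Joined over gaps, the H3K4me3 stretch was 2.51 and 2.53 kb, longer than 72.3 and 73.4% of the stretches at gene starts.

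The ATAC-seq replicates differed at Cd3e. Replicate 1 had an interval of 200 bp, the smallest width in that list, at chr9:45009628-45009827, which lies at positions -216 to -17 from the start site and holds the E-box at -57 to -52. Replicate 2 had none in the whole window, and its nearest interval was 22.2 kb away, at the far end of Cd3d. Accessibility at the Cd3e start was therefore called in 1 of 2 replicates, and the depth that would tell a weak site from none is unknown. H3K36me2 also differed. Replicate 1 had no H3K36me2 in the span of Cd3e, whereas replicate 2 covered 61.0% of it with intervals that ended 1012 bp inside the start site. Near the far end of Cd3e, H3K36me2 was found in both replicates, with 1665 and 5001 bp of the 5 kb window. A single H3K27ac interval of 205 bp at the far end was in replicate 2 alone. The gap in H3K36me2 around the Cd3e start site measured 60.8 kb in replicate 1 and 48.0 kb in replicate 2. Of this gap, 12.2 kb in replicate 1 and 1.0 kb in replicate 2 lay on the gene side of the start site. Upstream, the next H3K36me2 interval began at position 45058201 in replicate 1 and 45056601 in replicate 2.

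Cd247 held 2 separate blocks of the active marks, at its start site and deep inside the gene. The block at the start began 79 and 102 bp before the start site for H3K4me3 and measured 1547 and 1605 bp. H3K27ac there measured 1586 and 1567 bp. H3K9ac formed a single interval of 1632 bp in replicate 1, and 970 and 332 bp in replicate 2. The block lay almost wholly downstream of the start site, and of the 250 bases printed, 79 and 102 were in H3K4me3. The H3K4me3 stretch was longer than 26.3 and 30.3% of those at gene starts. No ATAC-seq interval was called within 24 kb of this start in either replicate, and the nearest lay 24.6 and 24.5 kb upstream, outside the window and over the start of Creg1.

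The second block lay 55.7 to 57.5 kb inside Cd247. H3K4me3 measured 1706 and 1657 bp there, H3K9ac 1428 and 1423 bp, and H3K27ac 1468 and 1543 bp. All 6 lists shared chr1:165844622-165845995 (1374 bp). This block, unlike that at the start, held called ATAC-seq intervals, and whether the start is a weak site or none is unknown. ATAC-seq intervals of 391 and 441 bp in replicate 1 and of 695 and 233 bp in replicate 2 fell into it, and they were the only ATAC-seq intervals of the Cd247 window. An antisense lncRNA gene, Gm32999 (chr1:165832578-165849126, minus strand), overlaps Cd247 here, and the block lies inside the spans of both. A further H3K27ac interval of 420 and 410 bp, without H3K4me3, H3K9ac or ATAC-seq, covered the listed start site of Gm32999 at position 165849126. The lists carry no strand, so signal of Cd247 and of Gm32999 cannot be told apart at these places. If the outer edge of the Cd247 span is taken as its start in place of the listed site, none of the active marks touched it, and the counts of starts with H3K4me3, H3K9ac and H3K27ac fell from 4 to 3.

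**Figure D3:**
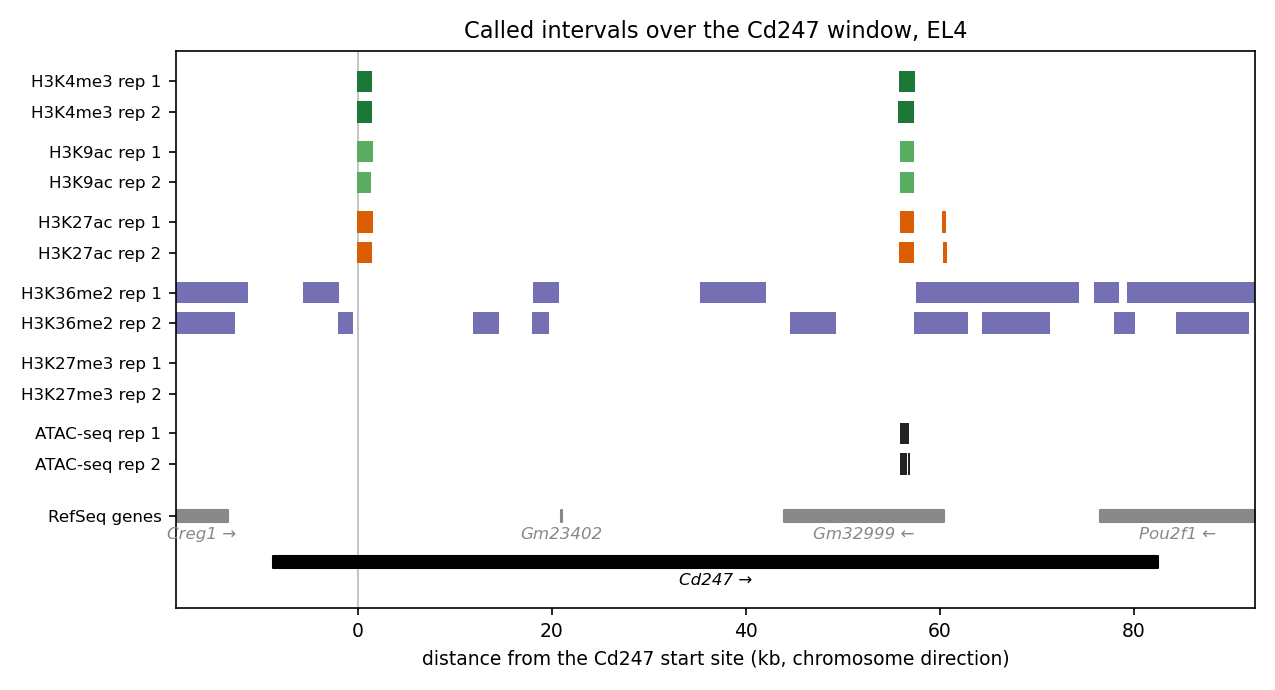
Called intervals of each list over the Cd247 window, by distance in kb from the listed Cd247 start site (grey line) in the direction of the chromosome. Black marks Cd247 and grey its neighbours. The active marks form a block at the start and another from 55.7 to 57.5 kb, both in each replicate, and ATAC-seq is found in the inner block only.

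H3K36me2 in Cd247 was patchy and varied between replicates. It covered 47.8% of the window in 7 intervals in replicate 1 and 35.3% in 9 intervals in replicate 2. The base pairs covered in either replicate were 63.2 kb of 111 kb, and those covered in both were 29.2 kb. Around the start site it left a gap of 20001 bp in replicate 1 and 12401 bp in replicate 2, and beyond the inner block it was dense in both, with an interval of 16799 bp beginning at 165846201 in replicate 1 and another of 5599 bp beginning at 165846001 in replicate 2. H3K36me2 of both replicates had 491 bp in common with any active list. With the regions where all 6 lists of the active marks met, H3K36me2 of either replicate shared 0 bp in Cd247 and 1353 bp in the windows of the 3 neighbouring genes.

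Over whole windows, H3K36me2 covered the most base pairs in each of the 4 genes, although on the gene span alone it covered a mean of 0.492% in Cd3d. Its intervals were called as broad domains with Epic (median width 5399 and 4999 bp). Those of the active marks were called with macs2, and the widest, of H3K4me3, had medians of 1345 and 1359 bp. The rank of H3K36me2 therefore cannot be told apart from the difference in caller. H3K36me2 covered 63.1% ± 0.919 (SD, n = 2) of the Cd3g window, 68.0% ± 1.68 of the Cd3d window, 39.7% ± 16.5 of the Cd3e window and 41.6% ± 8.87 of the Cd247 window. For Cd3e the replicates stood at 28.0 and 51.3%, which is the largest gap between replicates among these values. The median over all genes was 3.53%, and 46.4% of the genes with a listed start had no H3K36me2 interval in the window. The coverage was above that of 86.8% (Cd3g), 89.4% (Cd3d), 73.9% (Cd3e) and 74.8% (Cd247) of all genes.

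The active marks covered more of the Cd3g and Cd3d windows than of the Cd3e and Cd247 windows. H3K27ac covered 35.4% ± 0.238 (SD, n = 2) of the Cd3g window and 36.6% ± 0.154 of the Cd3d window, both above 99.6% of all genes. The Cd3g window holds the stretch over Cd3d and the start of Ube4a, and on the Cd3g span alone the mean was 16.8%, against 98.0% on the Cd3d span and 9.04% on the Cd3e span. H3K27ac covered 6.40% ± 0.146 of the Cd3e window and 3.14% ± 0.0293 of the Cd247 window, above 80.3 and 66.3% of all genes. H3K4me3 covered 32.3% ± 0.642 and 32.9% ± 0.775 for Cd3g and Cd3d, 7.65% ± 0.00457 for Cd3e and 2.93% ± 0.00572 for Cd247. H3K9ac covered 32.9% ± 0.829, 35.0% ± 0.660, 5.57% ± 1.01 and 2.60% ± 0.213 in the same order. The median over all genes was 0 for each active mark, since 51.2% (H3K4me3), 52.6% (H3K9ac) and 50.5% (H3K27ac) of the genes with a listed start had no interval in the window.

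The order of the active marks was not the same in each gene. In Cd3d and Cd3g it was H3K27ac, H3K9ac and H3K4me3, whereas in Cd3e it was H3K4me3, H3K27ac and H3K9ac, and in Cd247 H3K27ac, H3K4me3 and H3K9ac. Among neighbours in this order, only H3K9ac and H3K4me3 in Cd3g had replicate ranges that overlapped. The order depended on the flanks. On the span alone it turned in Cd3g to H3K4me3 (19.1%), H3K9ac (18.8%) and H3K27ac (16.8%), and in Cd3e H3K9ac (10.8%) came before H3K27ac (9.04%). ATAC-seq ranked below these marks in every gene, with 5.15% ± 0.942 (SD, n = 2) in Cd3g, 3.67% ± 0.425 in Cd3d, 0.791% ± 0.0610 in Cd247 and 0.323% ± 0.457 in Cd3e. The Cd3e value did not differ from that of H3K27me3, which was 0, beyond the spread between replicates.

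**Figure D4:**
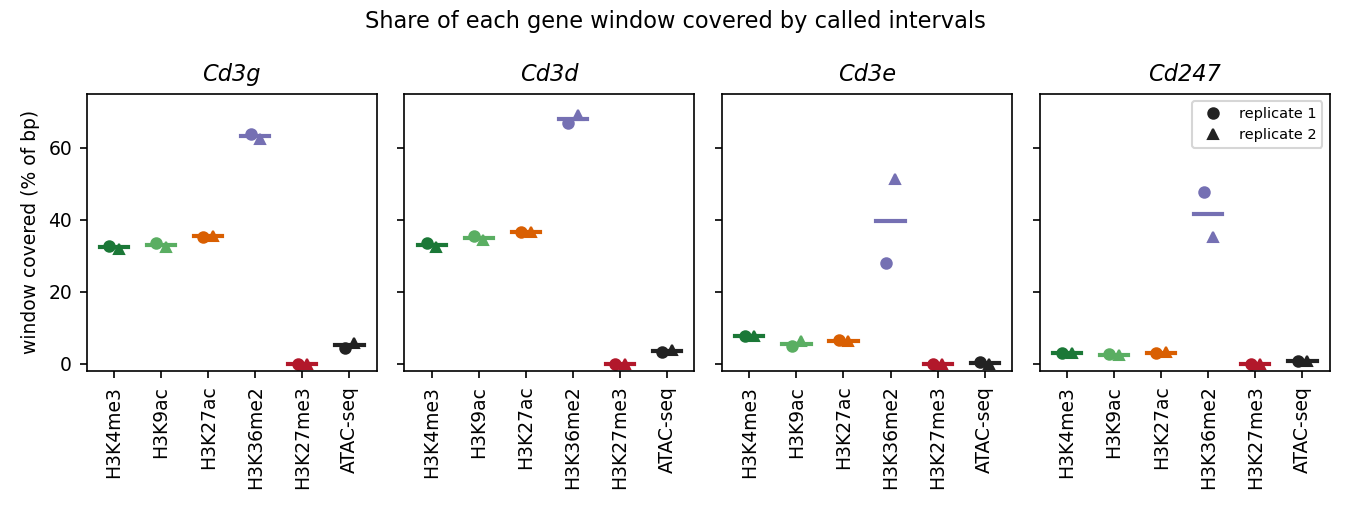
Percent of the base pairs of each gene window covered by called intervals (vertical axis) for each assay. Circles are replicate 1, triangles replicate 2 and lines their mean. The Cd3g and Cd3d windows, which share 18663 bp, have the active marks over 31.8 to 36.7% of their length, and the replicates of H3K36me2 stand apart in Cd3e and Cd247.

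H3K27me3 had no interval in any of the 4 windows in either replicate. The same was true of 65.9% of all genes and of 84.3% of the genes with the active marks at the start. The nearest H3K27me3 interval to the CD3 cluster lay 86.1 kb from Cd3e in replicate 1 and 145.5 kb in replicate 2. For Cd247 the distances were 474.8 kb in replicate 1 and 31.6 kb in replicate 2, the latter to chr1:165744001-165748399. The median distance over all genes was 54.5 and 60.7 kb.

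Other genes of T cell receptor signalling were counted with the same rules for comparison. Of 19 such genes, 13 had a listed start. The active marks were at the start of 10 of the 13, against 34.4% of all genes, namely the kinases Lck, Fyn, Zap70 and Csk, the adaptors Lat, Lcp2, Nck1 and Trat1, and the surface proteins Cd5 and Ptprc (the phosphatase CD45). The coreceptor Cd8a, the adaptor Grap2 and Ptcra, the pre-receptor alpha chain, had none of the active marks at the listed start in either replicate, although Ptcra had all 3 at its far end in both. ATAC-seq was at 7 of the 13 starts, against 31.6%, and among the 10 with the active marks it was absent from Csk and Trat1 in both replicates and from Lcp2 in 1 replicate. Starts with the active marks and no ATAC-seq interval in either replicate were thus seen in this list as well as in Cd247. H3K27me3 was in 0 of the 19 windows in both replicates, against 23.1% of all 49554 genes, and H3K36me2 was at 9 of the 13 far ends, against 27.7%.

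Adaptors of other lineages that carry the same activation motif served as a second comparison. Of Cd79a and Cd79b (B cell receptor), Fcer1g (Fc receptors) and Tyrobp (natural killer and myeloid receptors), Cd79a and Fcer1g had a listed start, and none of the active marks was at either. Of all genes, 35.5% (H3K4me3), 35.0% (H3K9ac) and 35.5% (H3K27ac) had the mark at the start. Anywhere in the window, however, H3K4me3, H3K9ac, H3K27ac and ATAC-seq were each found in both replicates in 3 of the 4 adaptor genes. Among all 49554 genes the shares were 37.9% (H3K4me3), 36.5% (H3K9ac), 38.1% (H3K27ac) and 34.3% (ATAC-seq). The windows include 10 kb of flank on each side, so intervals of neighbouring genes can count there too. At the far end of Cd79a the active marks and ATAC-seq were found in both replicates, and the gene they belong to was not determined. H3K27me3 was in 0 of the 4 windows in both replicates, against 23.1% of all genes.

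The protein-coding genes most like each CD3 gene were sought by the mean absolute difference of window coverage over the 12 lists. For Cd3e these were Nkpd1 (1.02 percentage points), Nmb (1.11) and Cep295 (1.11), against a median of 9.26 over 17271 genes. All 3 had ATAC-seq in both replicates (1.13 to 2.45% of the window), where Cd3e had it in 1. For Cd3d they were Atp6v1g2 (2.12), Eno3 (2.56) and Tap1 (2.59), and for Cd3g Pfn1 (1.18), Atp6v1g2 (1.84) and Eno3 (1.85). Eno3 and Pfn1 overlap on chromosome 11 and share intervals, as Cd3d and Cd3g do. For Cd247 they were Tspan3 (0.302), Litaf (0.332) and Alkbh3 (0.465). Among the CD3 genes, Cd3d and Cd3g differed by 1.71 points and Cd3e and Cd247 by 4.89, whereas the other pairs differed by 18.2 to 20.8. The median difference from all genes compared was 25.9 for Cd3d, 24.7 for Cd3g and 8.5 for Cd247, beside the 9.26 for Cd3e.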

How the data were processed

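Reads were aligned by the authors with STAR 2.5 to GRCm38, reads with more than 1 alignment were discarded and Picard was run against PCR bias. The methods also state that reads on chromosomes X and Y and on the mitochondrial genome were discarded. The shares of all genes include chromosome X, and shares among autosomal genes are given below. Per the methods, the authors called intervals in each replicate with macs2 (H3K4me3, H3K9ac, H3K27ac and ATAC-seq) or Epic (H3K36me2 and H3K27me3), with the input as control for ChIP-seq. The deposited lists hold chromosome, start and end in base pairs, without scores, counts or normalization, so depth is unknown. Starts were shifted to 1-based positions. Genes came from the RefSeq table of GRCm38.p6, and strand and start site from the first row of each gene in the RefSeq promoter table. An end window ran from 3 kb outside to 2 kb inside, with 1 bp of overlap required. The values are positions of 2 replicates, and no test was run.

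Named genes were the 4 CD3 genes, genes touching their windows, a list of 19 signalling genes, 4 adaptors, and the 3 genes most similar to each CD3 gene by window coverage. The members and lists were chosen with earlier results of these data known. Joining of intervals within 1000 bp, the regions common to several lists, the H3K36me2 gaps and the comparison within 1 kb of starts were chosen after the data were examined. A planned search for protein motifs was not run here. Counting was tested on simulated data, where intervals planted at 200 gene starts were all recovered (200) and 0 of 26794 windows differed from bedtools 2.31.1. Tools were Python 3.11.15, numpy 2.4.6, pandas 2.3.3 and matplotlib 3.10.9.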

Additional observations from a re-analysis of the deposited data

How the results depend on the processing

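No paired analysis was possible because the values come from no test. The counts of CD3 genes with a mark at an end changed by more than 1.5 times in few settings. With windows of 1 kb on either side of the end, H3K36me2 was at 0 starts and 2 far ends, and ATAC-seq was at 1 start and 1 far end. For these starts the shares of all genes were 13.2% (H3K36me2) and 29.9% (ATAC-seq), and for the far ends no share is given. With intervals of at least 500 bp, ATAC-seq was at 0 starts and 0 far ends. The median ATAC-seq width was 418 and 428 bp, so this filter removes most intervals of both lists. No share of all genes is given for it, and these counts are not a result about the CD3 genes. H3K27ac was at 2 far ends when an interval of either replicate was enough, and at 1 to 2 when a replicate was left out. Among protein-coding genes, the shares with a mark at the start were 46.1% (H3K4me3), 45.5% (H3K9ac), 45.7% (H3K27ac), 25.2% (H3K36me2), 9.60% (H3K27me3) and 41.6% (ATAC-seq). Among autosomal genes they were 35.8% (H3K4me3), 35.3% (H3K9ac), 35.8% (H3K27ac), 23.2% (H3K36me2) and 10.9% (H3K27me3). With any listed start of a gene, a setting added after the data were examined, they were 36.2% (H3K4me3), 35.7% (H3K9ac), 36.2% (H3K27ac), 23.3% (H3K36me2), 11.0% (H3K27me3) and 32.3% (ATAC-seq). Of the 24 window coverages, 17 moved by more than the spread between replicates when the gene span alone was used, and 13 when either replicate was enough. Called intervals without scores set the limit of these values, since a weak peak and no peak cannot be told apart.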
